A study of Homo sapiens with 12 samples.

Results

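The direct comparison of the single agents in SU-DHL-4 cells set 3 libraries exposed to Ento against 3 libraries exposed to AZD, 6 of the 12 libraries of the series, and covered the 16835 of 46863 counted gene symbols that passed a filter on low counts. Ento (Entospletinib) blocks SYK, the spleen tyrosine kinase, and was given at 1 µM. AZD (AZD5153) is a bivalent inhibitor of the BET proteins and was given at 0.01 µM. SU-DHL-4 is an established cell line of the germinal centre B-cell (GCB) type of diffuse large B-cell lymphoma, so all libraries derive from 1 cell line without other cells of a tumour. Exposure lasted 72 h in every group, and RNA was enriched for polyadenylated transcripts. The remaining 6 libraries, 3 exposed to DMSO as the vehicle and 3 exposed to Ento+AZD at these doses, entered the fit but not the contrast. The doses of both agents differ, so the contrast describes these exposures and not the agents at a matched dose.

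SYK is recruited to the B cell receptor through CD79A and CD79B, phosphorylates the adaptor BLNK, and passes the signal to PLCG2, PI3K, the RAS-ERK cascade and NF-kB. PI3K activity keeps the transcription factor FOXO1 out of the nucleus. BET proteins bind acetylated histones and carry the elongation factor P-TEFb to promoters and enhancers, and their inhibitors lower many genes of B cell identity and growth that depend on strong enhancers. The comparison asks which genes and programmes separate inhibition of the receptor kinase from inhibition of the chromatin readers.

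Total counts lay between 19689990 and 23639984 with Ento and between 19193603 and 23925992 with AZD. At this depth 1 count was worth 0.042 to 0.053 CPM, the count of a gene scaled to a fixed library total after TMM normalisation. The 8 B cell identity markers summed to 4747 to 8295 CPM with Ento and 5308 to 7896 CPM with AZD, and 3 of them, CD37 (0.65 ± 0.08) and CD79B (0.51 ± 0.11) included, were higher with Ento on the log2 scale (± SE here and for every log2 fold change), of which the call of CD37 held in each fit that left out 1 library. Of the markers of other cells, CD3D, CD2 and GNLY (T and NK cells), S100A8, S100A9 and MPO (myeloid cells) and COL1A1, COL1A2, VWF, KRT8 and KRT18 (stromal, endothelial and epithelial cells) were at 0 in all 6 libraries. The 8 T and NK cell markers summed to 3.05 to 4.54 CPM with Ento and 1.89 to 2.78 CPM with AZD, and the 7 myeloid markers to 0.442 to 2.05 and 0.581 to 1.98 CPM. The stromal, endothelial and epithelial list reached 98.7 to 209.6 CPM with Ento and 48.5 to 125.0 CPM with AZD through DCN and PECAM1, and both of these were higher with Ento (log2 fold changes of 0.80 ± 0.10 and 1.23 ± 0.18). The part of these markers in the results below was not tested. Fewer cells in one state and less RNA per cell cannot be told apart in such bulk libraries.

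Promoter sequences of 4 of the genes on which the comparison turned, RASSF6 and BACH2 (higher with Ento) and SLAMF1 and SLC8A1 (higher with AZD), are given for orientation. They are the 250 bases before 1 RefSeq transcription start of each gene (GRCh38.p14, all on the minus strand, 5′ to 3′ in the direction of the gene), and which start these cells use was not measured. Capitals mark matches on either strand to 1 of 4 motifs, GTAAACA (FOXO), TGANTCA (AP-1), ATTTGCAT (octamer) and TGACGTCA (cAMP response element), which are held by 2.98%, 6.60%, 1.66% and 1.77% of all 27305 promoters in windows of this length.
RASSF6 (chr4:73620632-73620881): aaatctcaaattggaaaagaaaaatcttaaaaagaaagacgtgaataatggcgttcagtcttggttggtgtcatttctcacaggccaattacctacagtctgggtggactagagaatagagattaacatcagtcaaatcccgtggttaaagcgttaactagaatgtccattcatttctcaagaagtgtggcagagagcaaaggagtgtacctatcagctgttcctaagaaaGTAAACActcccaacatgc
BACH2 (chr6:90296844-90297093): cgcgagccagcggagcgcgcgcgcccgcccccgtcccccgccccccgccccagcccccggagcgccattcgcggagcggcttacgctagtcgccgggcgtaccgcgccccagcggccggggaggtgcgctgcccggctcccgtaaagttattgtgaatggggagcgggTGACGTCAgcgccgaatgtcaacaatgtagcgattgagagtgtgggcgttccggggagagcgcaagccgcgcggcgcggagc
SLAMF1 (chr1:160647045-160647294): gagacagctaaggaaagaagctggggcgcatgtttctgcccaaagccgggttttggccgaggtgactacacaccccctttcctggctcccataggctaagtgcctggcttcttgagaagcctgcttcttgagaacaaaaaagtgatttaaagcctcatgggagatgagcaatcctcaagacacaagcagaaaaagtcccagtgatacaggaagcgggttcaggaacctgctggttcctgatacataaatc
SLC8A1 (chr2:40512436-40512685): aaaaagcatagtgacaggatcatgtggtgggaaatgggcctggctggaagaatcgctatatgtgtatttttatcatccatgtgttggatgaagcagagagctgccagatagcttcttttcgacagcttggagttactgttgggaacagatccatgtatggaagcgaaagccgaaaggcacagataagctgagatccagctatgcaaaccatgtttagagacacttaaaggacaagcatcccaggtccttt
The FOXO match of RASSF6 began 19 bases before the start and the cAMP response element match of BACH2 began 82 bases before it. None of the 4 motifs was found in the windows of SLAMF1 and SLC8A1. A match is a description of the letters and no evidence of binding.

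Among genes with a fold change over 2, the exposures differed mainly in genes that were higher with Ento. Differentially expressed genes (DEGs, adjusted p under 0.05 in edgeR's quasi-likelihood test and a fold change over 2) numbered 541 of 16835 (3.21%). Of these, 472 (2.80% of all tested genes) were higher with Ento and 69 (0.410%) were higher with AZD, so 87.2% of DEGs had the higher level with Ento. The median log2 fold change of all tested genes was 0.006. At the adjusted p alone 1514 genes (8.99%) were higher with Ento and 964 (5.73%) were higher with AZD, together 14.7%. Of the 541 DEGs, 539 had the same sign in all 3 pairs of libraries with the same replicate number. In 454 DEGs no Ento library overlapped with an AZD library, against 21.5% of all tested genes. The DEGs were selected on these same libraries, so both counts follow in part from the selection and are no independent evidence.

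Large differences were more numerous on the Ento side too, as were DEGs in all. A log2 fold change above 2 was fitted for 96 DEGs higher with Ento, and one below −2 for 11 DEGs higher with AZD. Most DEGs were genes of low abundance. Over the 6 libraries the median level was 1.68 CPM for the DEGs higher with Ento and 1.97 CPM for those higher with AZD, against 15.7 CPM for all tested genes, while 101 and 14 DEGs exceeded 10 CPM. In 13 DEGs every AZD library held at most 3 counts, and in 3 DEGs every Ento library did. For such genes a fold change is given as a lower bound against 3 counts per library, which covers counting error only.

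**Figure D1:**
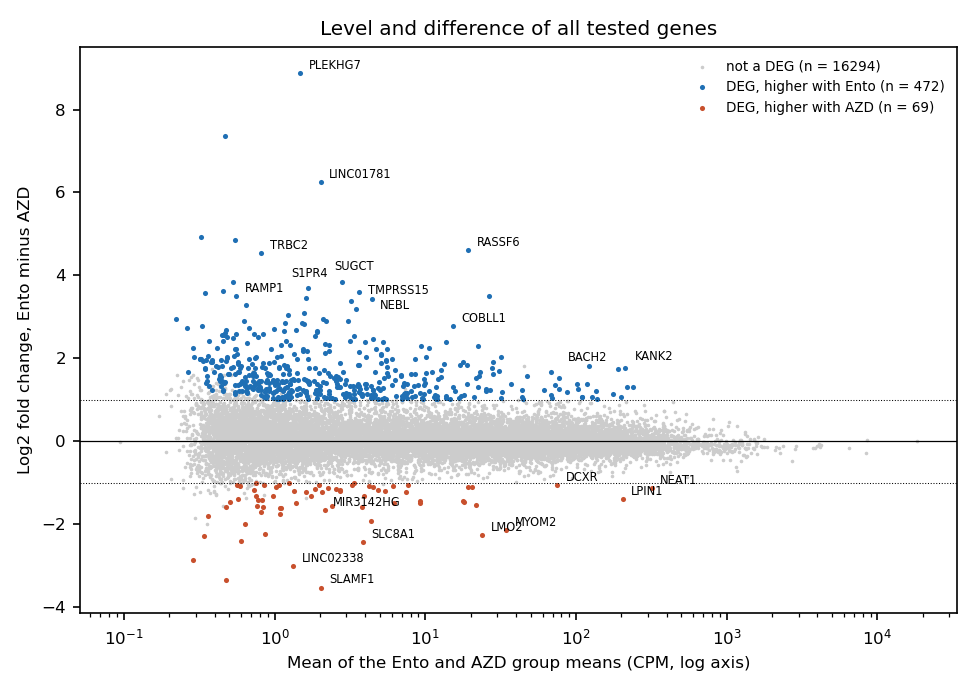
Log2 fold change between Ento and AZD (y axis, positive where Ento was higher) against the mean level of both groups in CPM (x axis, log scale) for the 16835 tested genes, with DEGs in colour and dotted lines at a fold change of 2. The 472 DEGs above the upper line outnumber the 69 below the lower line, and the largest differences lie at low levels, where the fitted values of genes without counts in 1 group depend on the fit.

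The strongest separation among genes of moderate abundance was seen for RASSF6 and COBLL1. RASSF6 (chr4:73571550-73620631, minus strand), a member of the Ras association domain family, was counted at 28.3, 22.5 and 60.6 CPM in the Ento libraries and 1.85, 1.02 and 1.31 CPM in the AZD libraries. No Ento library came near the AZD range, and the log2 fold change was 4.62 ± 0.26 (SE, adjusted p = 2.29e-07). COBLL1 (chr2:164653624-164843679, minus strand), an actin regulator of the Cordon-bleu family, had the smallest adjusted p of all tested genes (8.99e-08). Its levels were 22.5, 27.0 and 31.0 CPM with Ento and 4.38, 3.10 and 4.16 CPM with AZD, a log2 fold change of 2.78 ± 0.14.

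Abundant genes were among the best separated as well. BACH2 (chr6:89926528-90296843, minus strand) encodes a repressor that keeps B cells from plasma cell differentiation. It was counted at 289.7, 351 and 236 CPM with Ento and 88.4, 122 and 58.5 CPM with AZD, a 3.34-fold higher level with Ento (log2 fold change 1.74 ± 0.10, adjusted p = 2.29e-07). KANK2, a scaffold protein that links the cytoskeleton to adhesion sites, showed 338, 303 and 336 CPM against 107, 92.4 and 88.3 CPM and a log2 fold change of 1.77 ± 0.10. RNGTT, the enzyme that caps nascent mRNA, gave 325, 341 and 254 CPM against 135, 158 and 87.6 CPM, a log2 fold change of 1.31 ± 0.09. In each of these 3 genes all Ento libraries lay above all AZD libraries.

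Among the genes with the smallest p were also RASGRP2 and WNT5A. RASGRP2, a calcium-responsive activator of the small GTPase RAP1, reached 101, 151 and 89.3 CPM with Ento and 33.8, 61.2 and 26.8 CPM with AZD (log2 fold change 1.53 ± 0.10). The levels of the non-canonical WNT ligand WNT5A were 48.3, 48.0 and 36.9 CPM and 14.9, 12.5 and 8.18 CPM (1.91 ± 0.12). Both genes kept the groups apart in every library (adjusted p = 4.75e-07 and 4.22e-07).

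Several genes higher with Ento were close to the limit of detection with AZD. PLEKHG7 had no count in any AZD library, against 1.81, 6.76 and 0.344 CPM with Ento, which is at least 20.6-fold higher. This bound rests on Ento replicate 2 and was at least 7.47-fold without it, and exons of EEA1 lie on the opposite strand. LINC01781, a long non-coding RNA, was at least 27.8-fold higher with Ento (4.33, 4.25 and 3.44 CPM against 0.0843, 0 and 0.0484 CPM). TRBC2, a constant region of the T cell receptor beta chain, was at least 10.9-fold higher (2.44, 0.512 and 1.77 CPM against 0.0843, 0 and 0.0968 CPM). The T cell gene CD3E was low as well, at 2.14, 1.13 and 1.33 CPM with Ento and 0.759, 0.481 and 0.677 CPM with AZD, while CD3D and CD2 were at 0. SUGCT, TMPRSS15, RAMP1 and NEBL also belonged to the 10 largest differences among DEGs with at least 1 CPM in the higher group and 1 sign in all pairs, with log2 fold changes of 3.84 ± 0.38, 3.60 ± 0.38, 3.50 ± 0.57 and 3.43 ± 0.39 and means of 5.27 ± 1.98, 6.67 ± 3.41, 1.03 ± 0.530 and 8.09 ± 3.02 CPM (SD, n = 3) with Ento. The size of these differences rests in part on single libraries. Without AZD replicate 1, the only AZD library with counts of RAMP1, the fitted value of RAMP1 was 6.83 and depends on the fit, and that of NEBL was 4.47. Without AZD replicate 2 the value of TMPRSS15 was 4.24.

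DEGs higher with AZD were fewer, and their median absolute log2 fold change was 1.39, against 1.44 for DEGs higher with Ento. SLAMF1 (chr1:160608106-160647044, minus strand), a co-stimulatory receptor of lymphocytes, was counted at 0.252, 0.409 and 0.295 CPM with Ento and 3.96, 2.46 and 4.74 CPM with AZD. Every AZD library exceeded every Ento library, and the log2 fold change was −3.53 ± 0.41 (adjusted p = 5.99e-05). SLC8A1, the sodium-calcium exchanger of the plasma membrane, showed 1.35, 1.02 and 1.18 CPM and 6.57, 4.54 and 8.56 CPM (−2.44 ± 0.20, adjusted p = 4.14e-06), again without overlap. LMO2, a transcriptional adaptor expressed in germinal centre B cells, varied between libraries of the same group, with 5.68, 19.6 and 2.51 CPM for Ento and 26.1, 60.0 and 29.8 CPM for AZD. Within each replicate number the AZD library was higher, and the log2 fold change was −2.27 ± 0.35 (adjusted p = 5.21e-04), or −2.91 without Ento replicate 2.

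The remaining genes of this side covered several functions. MYOM2, a sarcomere protein, reached 13.7, 16.5 and 8.10 CPM with Ento and 44.2, 65.2 and 58.7 CPM with AZD (−2.15 ± 0.20). LPIN1, a phosphatidate phosphatase of lipid synthesis, gave 104, 147 and 89.2 CPM and 241, 345 and 304 CPM (−1.39 ± 0.12). The nuclear long non-coding RNA NEAT1, the scaffold of paraspeckles, gave 166, 269.8 and 159 CPM and 299.7, 531 and 479 CPM (−1.13 ± 0.12). All 3 were separated without overlap. The histone deacetylase gene HDAC9 (−1.50 ± 0.17), the Notch ligand gene DNER (−1.76 ± 0.35), the xylulose reductase gene DCXR (−1.05 ± 0.10), TRAM2 (−1.10 ± 0.12), FSD2 (−1.44 ± 0.14) and the non-coding transcripts LINC02338 (−3.01 ± 0.31), LINC00639 (−2.24 ± 0.41) and MIR3142HG (−1.67 ± 0.23) were higher with AZD too. The gene CPM, which encodes carboxypeptidase M, differed by −1.71 ± 0.35, with 0.336, 0.205 and 0.540 CPM for Ento and 0.716, 0.481 and 2.61 CPM for AZD. Its libraries overlapped, and AZD replicate 3 was far above the others. Without AZD replicate 3, and likewise without Ento replicate 3, this gene was no longer called.

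**Figure D2:**
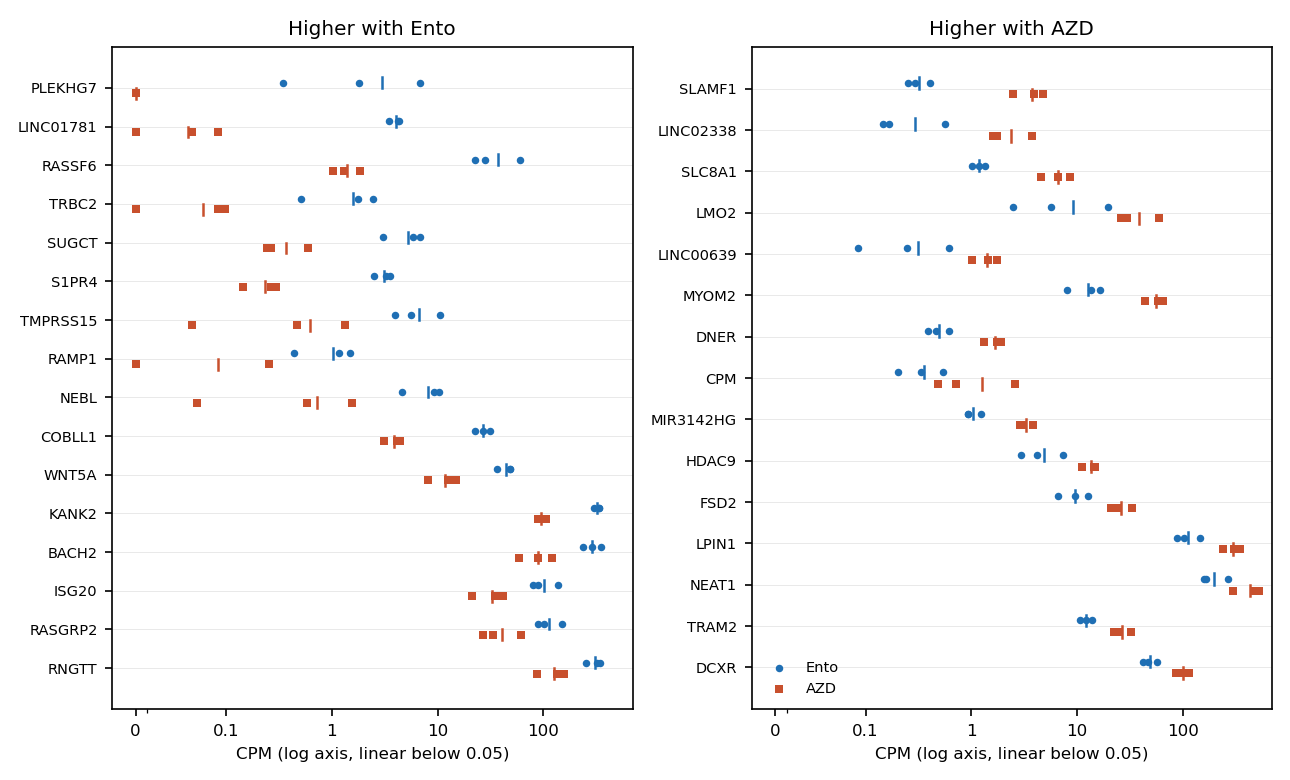
Levels in CPM (x axis, log scale, linear below 0.05) of 16 named genes higher with Ento (left) and 15 higher with AZD (right) in the 3 Ento libraries (blue circles) and the 3 AZD libraries (red squares), with a vertical line at each mean. Both groups are apart in 30 of 31 genes, and in the gene CPM the lowest AZD library (0.481 CPM) lies below the highest Ento library (0.540 CPM). The genes were chosen on these libraries, so this separation is no independent evidence. Of all tested genes, 21.5% were without overlap.

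Of the 34 genes that met the naming rule, 31 are reported here. The calls of all 34 were kept in 33 cases in each of the 6 fits that left out 1 library, the exception being the gene CPM. In the fit without the replicate term 28 of 34 were kept. PLEKHG7 and TMPRSS15 then had an adjusted p of 0.0524 each, RAMP1 0.113, LINC00639 0.0761, LMO2 0.124 and CPM 0.222. Of the 34 genes, 9 overlap exons of a gene on the other strand, whose reads the counting may not keep apart (PLEKHG7, NEBL, BACH2, SLC8A1, LPIN1, TRAM2, FSD2, LINC00639 and CPM). The same holds for many genes of the lists described below, among them MME, NEIL1, POU2AF1, FOXP1, CXCR5, ITGB7, PIK3CD, BLNK, BLK, CD72, IFIT2, PARP9, HLA-B, HEXIM1, ZCCHC24, ATF5, BBC3, MCL1 and SLC30A4.

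Germinal centre B cell factors were more often higher with Ento. Of 25 tested members, 10 were higher with Ento and 1 (LMO2) was higher with AZD at the adjusted p alone, against 8.99% and 5.73% of all tested genes, with a median log2 fold change of 0.19. Next to BACH2, the transcriptional coactivator POU2AF1 was counted at 549.7, 575 and 557 CPM with Ento and 326, 383 and 325 CPM with AZD (0.71 ± 0.07, adjusted p = 1.34e-05). The surface peptidase MME (CD10) showed 517, 378 and 532 CPM and 329, 259 and 271 CPM (0.72 ± 0.09), and the forkhead factor FOXP1 113, 109 and 100.0 CPM and 72.4, 74.0 and 59.8 CPM (0.65 ± 0.09). No library of one group reached into the other for these 3 genes. NEIL1, a DNA glycosylase, was 2.21-fold higher with Ento (1.14 ± 0.17). BCL6, the master repressor of the germinal centre, did not pass the test (−0.25 ± 0.10, adjusted p = 0.108), nor did EZH2 (0.14 ± 0.09) or IRF8 (−0.14 ± 0.08). Of the 11 calls, 9 held in each fit without 1 library and 6 in the fit without the replicate term. Of 9 tested plasma cell factors, 2 were higher with Ento and 1 with AZD, none of which held in every fit without 1 library, and XBP1 did not pass (0.19 ± 0.15).

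Receptors that guide B cells within lymphoid tissue differed in many members. Of 20 tested homing and confinement genes, 10 were higher with Ento and 2 with AZD, with a median log2 fold change of 0.30. The sphingosine-1-phosphate receptor S1PR4 was counted at 3.53, 2.51 and 3.24 CPM with Ento and 0.295, 0.267 and 0.145 CPM with AZD (3.71 ± 0.32, adjusted p = 5.41e-06). The egress receptor S1PR1 remained below 1 CPM in all 6 libraries, at 0.925, 0.921 and 0.639 CPM and 0.169, 0.107 and 0.0968 CPM (2.68 ± 0.46). S1PR2, which confines B cells to the germinal centre, was abundant, at 246, 279 and 222 CPM and 156, 191 and 147 CPM (0.60 ± 0.08). All 3 sphingosine-1-phosphate receptors were higher in every Ento library than in any AZD library.

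The oxysterol receptor GPR183, which draws B cells to the outer follicle, reached 3.28, 3.63 and 2.90 CPM with Ento and 0.632, 0.641 and 0.387 CPM with AZD (2.64 ± 0.45). The chemokine receptor CXCR5 of the follicle was counted at 111, 104 and 100.0 CPM and 72.4, 62.7 and 41.0 CPM (0.87 ± 0.13). CXCR4, the receptor of the dark zone, differed by 1.23 ± 0.17 with libraries that overlapped between groups, at 117, 51.7 and 85.1 CPM and 64.8, 17.7 and 31.3 CPM, and was higher with Ento within each replicate number. The integrin gene ITGB7 went the other way, with 97.1, 166 and 70.4 CPM for Ento and 130.2, 247 and 160.4 CPM for AZD (−0.73 ± 0.14). Of the 12 calls, 8 held in each fit without 1 library and 6 in the fit without the replicate term, where CXCR4 and ITGB7 were lost (adjusted p = 0.186 and 0.282).

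**Figure D3:**
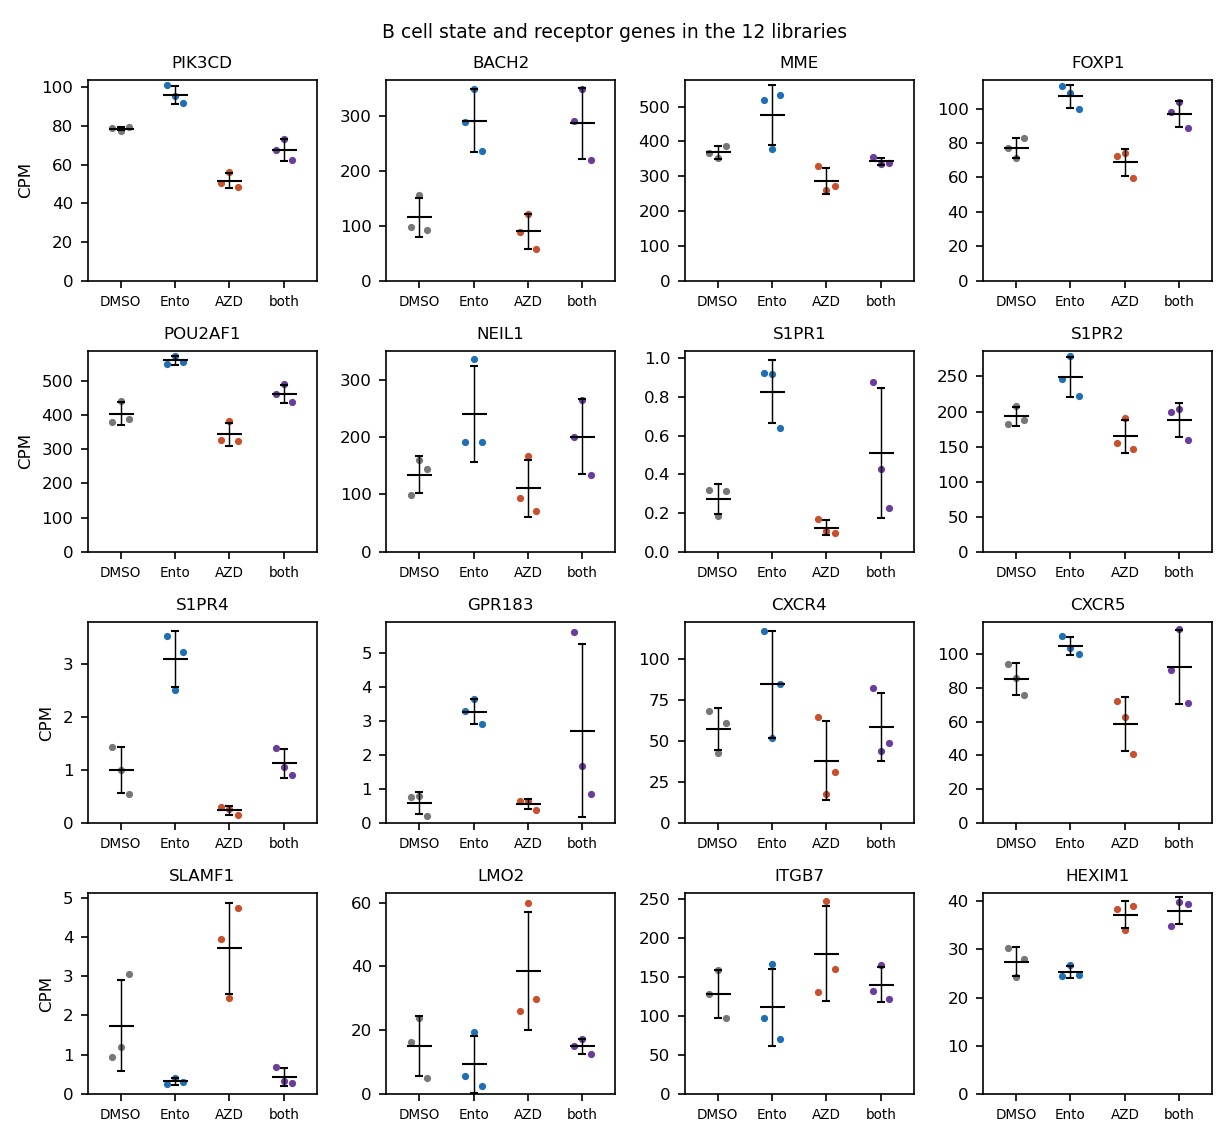
Levels in CPM (y axes, linear from 0) of 16 B cell state, receptor and marker genes in the 3 libraries each of DMSO, Ento, AZD and both agents, with points for libraries and black lines for the mean and SD. The Ento and AZD points are apart in most panels, while CXCR4 and ITGB7 overlap between these groups. All genes shown were called on these libraries, so this separation is no independent evidence. Without overlap were 21.5% of all tested genes.

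Components of B cell receptor signalling, the pathway of the Ento target, were partly higher with Ento. Of 33 tested members, 11 were higher with Ento and 2 with AZD, with a median log2 fold change of 0.18. The catalytic PI3K subunit gene PIK3CD was counted at 101, 95.3 and 91.9 CPM with Ento and 50.3, 56.3 and 48.6 CPM with AZD (0.90 ± 0.08, adjusted p = 5.41e-06). The adaptor gene BLNK, whose product is a substrate of SYK, showed 103, 99.1 and 97.3 CPM and 69.8, 67.6 and 60.9 CPM (0.60 ± 0.08). Both calls also held without the replicate term, as the only 2 of the 13 calls of this list. The scaffold gene BANK1 (0.98 ± 0.12), the SRC family kinase gene BLK (0.58 ± 0.07), the inhibitory co-receptor gene CD72 (0.84 ± 0.14) and the complement receptor gene CR2 (1.46 ± 0.31) were higher with Ento in each fit without 1 library. PAG1, an adaptor that recruits the inhibitory kinase CSK (−0.41 ± 0.07), and the RAS activator gene RASGRP3 (−0.46 ± 0.09) were higher with AZD. SYK itself reached 618 ± 94.2 CPM with Ento and 504 ± 68.9 CPM with AZD (SD, n = 3, 0.29 ± 0.08, adjusted p = 0.0322), a call that was lost in each of the 6 fits without 1 library. The kinase gene BTK (0.04 ± 0.07), LYN (−0.06 ± 0.07) and PLCG2 (−0.07 ± 0.07) did not pass.

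Genes that lie downstream of the receptor gave no uniform picture. Of 14 tested immediate-early genes, 2 were higher with each exposure, with EGR1 at 0.00 ± 0.35, MYC at −0.19 ± 0.08 and NR4A1 at −0.17 ± 0.15 not passing. KLF6 (0.69 ± 0.15) was higher with Ento and IER5 (−0.62 ± 0.12) with AZD in each fit without 1 library. Of 9 tested ERK feedback genes 2 were higher with Ento, of which the phosphatase gene DUSP1 was counted at 28.6, 6.45 and 20.9 CPM and 14.3, 3.47 and 8.27 CPM (1.09 ± 0.14). The spread of DUSP1 between replicate numbers exceeded the difference, which was seen within each number, and the gene was not called without the replicate term (adjusted p = 0.450). Of 19 tested NF-kB feedback and target genes 3 were higher with Ento and 1 with AZD, with a median of 0.004. TNF was the one higher with AZD (−1.33 ± 0.31), and it was lost without replicate 1 of either group. Of 18 tested FOXO1 targets and PI3K feedback genes 6 were higher with Ento and 1 with AZD, with a median of 0.28. Called in either direction were 28.6% of the immediate-early, 22.2% of the ERK feedback, 21.1% of the NF-kB and 38.9% of the FOXO1 list. Of all tested genes 14.7% were called. S1PR1, the insulin receptor gene INSR (0.57 ± 0.11) and PIK3IP1 (0.45 ± 0.09), an inhibitor of PI3K, held in each fit without 1 library, whereas FOXO1 (0.08 ± 0.07) did not pass.

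Interferon-stimulated genes and antigen presentation genes that differed were mostly higher with Ento. Of 20 tested interferon-stimulated genes 9 were higher with Ento and 1 with AZD, with a median of 0.43. The exonuclease gene ISG20 was counted at 89.5, 138 and 80.8 CPM with Ento and 35.1, 42.1 and 21.3 CPM with AZD (1.66 ± 0.11, adjusted p = 4.75e-07). EPSTI1 (1.15 ± 0.17), IFIT2 (1.42 ± 0.20), the GTPase gene MX2 (1.62 ± 0.34) and OAS1 (0.88 ± 0.11), a sensor of double-stranded RNA, were higher without overlap of the libraries. Of these 10 calls 8 held in each fit without 1 library and 4, among them ISG20, EPSTI1 and MX2, without the replicate term.

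Of 14 tested HLA class I presentation genes 4 (28.6%) were higher with Ento and none with AZD, against 8.99% and 5.73% of all tested genes. NLRC5, the transactivator of class I genes, showed 15.7, 25.3 and 8.89 CPM and 6.36, 10.8 and 3.34 CPM (1.30 ± 0.12), and HLA-B 115, 239 and 70.8 CPM and 60.1, 119 and 35.3 CPM (0.98 ± 0.12). HLA-C differed by 0.50 ± 0.08. Replicate 2 was the highest library of each group for all 3 genes, the libraries overlapped, and none of these calls held without the replicate term. Reads of HLA genes may be divided between near-identical copies and these values are uncertain. Of 15 tested class II genes 4 were higher with Ento, of which HLA-DOB (0.68 ± 0.10) and the protease gene CTSS (0.70 ± 0.10) held in each fit without 1 library. The transactivator CIITA (0.26 ± 0.09) and CD74 (−0.10 ± 0.11) did not pass.

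Transcripts used as markers of BET inhibition separated the exposures in part. Of 11 tested markers 2 were higher with AZD and 1 with Ento, together 27.3% against 14.7% of all tested genes. HEXIM1, the inhibitor of P-TEFb that rises under BET inhibitors, was counted at 24.4, 26.7 and 24.7 CPM with Ento and 38.4, 34.0 and 39.1 CPM with AZD (−0.56 ± 0.10, adjusted p = 0.00196). ZCCHC24 showed 1.85, 2.35 and 1.42 CPM and 5.90, 7.21 and 3.92 CPM (−1.59 ± 0.23). Both were higher in every AZD library than in any Ento library and were kept without the replicate term. SAT1, the rate-limiting enzyme of polyamine breakdown, was higher with Ento (0.58 ± 0.10). SERPINI1 (−0.09 ± 0.13) and MYC did not pass. The target genes BRD2 (0.10 ± 0.07) and BRD3 (0.17 ± 0.11) did not pass either. Of 56 replication-dependent histone genes 14 were tested, and H2BC21 alone differed (−1.01 ± 0.32, adjusted p = 0.0470, higher with AZD), a call that held in 2 of the 6 fits without 1 library.

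Of 36 tested DNA replication genes 7 (19.4%) were higher with Ento and none with AZD, against 8.99% and 5.73% of all tested genes. The median log2 fold change of the list was 0.35, with an SD of 0.22 between the medians of the 3 pairs, and the fitted value was above 0 for all 36. The helicase subunit gene MCM5 was counted at 195, 155 and 248 CPM with Ento and 113, 90.4 and 124 CPM with AZD (0.86 ± 0.11, adjusted p = 9.63e-05), without overlap, and was the only one of the 7 to hold in each fit without 1 library. Its partners MCM2 (0.31 ± 0.15), MCM3 (0.25 ± 0.15) and MCM6 (0.28 ± 0.16) did not pass. Of 33 tested mitosis genes 4 were higher with Ento, a share near that of all tested genes, and none of them held in every fit without 1 library. Their median was 0.36 with an SD of 0.26 between the pairs, and the fitted value was above 0 for all 33. Members of a list share these 6 libraries and are not replicates. Across the 13 alternative fits the median stayed between 0.26 and 0.45 for DNA replication genes and between 0.26 and 0.49 for mitosis genes. Against DMSO both lists had medians below 0 with either agent. DNA replication genes stood at −0.20 with Ento and −0.57 with AZD, mitosis genes at −0.36 and −0.75. At the adjusted p 20 of 36 and 29 of 33 were below DMSO with AZD (12.7% of all tested genes), and 1 and 2 with Ento (3.66%). Of 13 tested E2F and RB family genes 3 (23.1%) were higher with Ento. Of 15 tested G1 cyclins, CDKs and CDK inhibitors 1 was higher with Ento and 2 with AZD, together 20%. Of all tested genes 14.7% were called in either direction. None of these E2F, RB and G1 calls held in every fit without 1 library. The CDK inhibitor gene CDKN1A did not pass (−1.37 ± 0.47, adjusted p = 0.0674).

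Glycolysis and cholesterol synthesis genes that differed were mostly higher with AZD. Of 30 tested MYC target and ribosome biogenesis genes 2 were higher with AZD (ODC1 and LDHA), at a median of −0.08. This share of 6.67% was near the 5.73% of all tested genes. Neither call held in every fit without 1 library, and LDHA also counts among the glycolysis genes. Of 20 tested glycolysis genes 6 were higher with AZD and 1 with Ento, at a median of −0.25, and 18 of 20 had a fitted value below 0. The aldolase gene ALDOA (−0.71 ± 0.14) and the hexokinase gene HK1 (−0.33 ± 0.08) held in each fit without 1 library, and none of the 7 without the replicate term. Of 20 tested cholesterol synthesis genes 3 were higher with AZD, none of them in every such fit. Of 16 tested ATF4 stress targets 2 (12.5%) were higher with Ento, near the 8.99% of all tested genes. Of these 2, ATF5 held (0.90 ± 0.12). The mitochondrial transcripts RNR1 (0.13 ± 0.11) and RNR2 (0.02 ± 0.09) did not pass.

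Within the BCL2 family 3 of 15 tested genes differed, a share of 20% beside 14.7% of all tested genes. HRK, a BH3-only activator of apoptosis, was counted at 6.10, 6.19 and 4.96 CPM with Ento and 0.885, 1.23 and 0.871 CPM with AZD (2.54 ± 0.29, adjusted p = 5.86e-05). BBC3 (PUMA), of the same class, showed 6.60, 6.45 and 6.58 CPM and 4.59, 2.46 and 2.66 CPM (1.01 ± 0.22). Both were separated without overlap, but BBC3 was lost without AZD replicate 3 (adjusted p = 0.0527). MCL1, an inhibitor of apoptosis, was higher with AZD (−0.36 ± 0.09, adjusted p = 0.0151), a call that held in 1 of the 6 fits without 1 library. BCL2 (0.04 ± 0.10) and BCL2L11 (0.22 ± 0.08) did not pass.

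**Figure D4:**
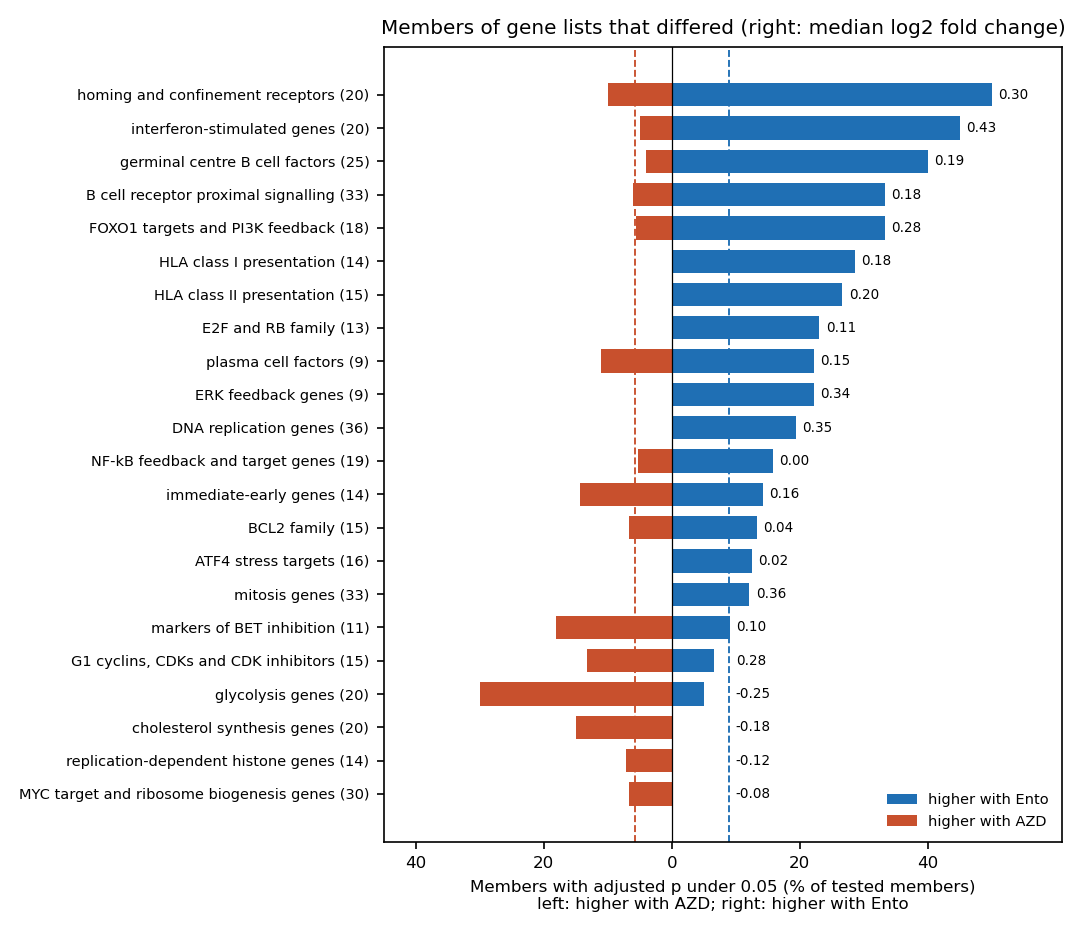
Share of tested members (number in parentheses) of the gene lists with at least 9 tested members, apart from the genes named by the study, with an adjusted p under 0.05, higher with Ento (blue, to the right) or with AZD (red, to the left), beside the share of all tested genes (dashed lines at 8.99% and 5.73%), with the median log2 fold change of each list printed beside its bar. Homing receptors, interferon-stimulated genes and germinal centre factors reach the largest shares to the right among the plotted lists, and glycolysis genes the largest to the left.

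Over all lists together 118 different genes were called, 89 higher with Ento and 29 higher with AZD. Of these, 56 held in each of the 6 fits without 1 library and 26 in the fit without the replicate term. The shares of the lists are read against 8.99% and 5.73% of all tested genes, and no test of a list was made.

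The DEGs of the direct comparison were then set beside DMSO. These comparisons share libraries with the direct one, and a gene chosen because it differed between Ento and AZD lies away from DMSO in at least one of them, so the values are descriptive. Of the 472 DEGs higher with Ento, 194 (41.1%) were above DMSO in the Ento libraries and none below at an adjusted p under 0.05, while 262 (55.5%) were below DMSO in the AZD libraries and 1 above. Over all tested genes 4.66% were above and 3.66% below DMSO with Ento, and 9.57% and 12.7% with AZD. The median log2 fold change against DMSO of these 472 genes was 0.60 with Ento and −0.92 with AZD, and 0.59 and −0.91 without the 13 genes at the limit of detection. Of the 69 DEGs higher with AZD, 31 (44.9%) were below DMSO with Ento and none above, and 36 (52.2%) were above DMSO with AZD and 1 below, with medians of −0.78 and 0.65.

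Individual genes reached the difference in several ways. GPR183 rose with Ento against DMSO (2.60 ± 0.43, adjusted p = 0.00278) and stood at −0.04 ± 0.57 with AZD (adjusted p = 0.972). WNT5A fell with AZD (−1.54 ± 0.12, adjusted p = 1.67e-05) and stood at 0.38 ± 0.11 with Ento (adjusted p = 0.0505). RASSF6 rose with Ento (2.03 ± 0.20) and fell with AZD (−2.59 ± 0.28), and so did COBLL1 (1.00 ± 0.12 and −1.77 ± 0.14), S1PR4 (1.66 ± 0.24 and −2.04 ± 0.37) and HRK (1.45 ± 0.25 and −1.09 ± 0.32). On the other side SLC8A1 fell with Ento (−2.74 ± 0.20) and stood at −0.30 ± 0.16 with AZD. DCXR, NEAT1 and MIR3142HG rose with AZD (1.01 ± 0.10, 0.96 ± 0.12 and 1.83 ± 0.23) and stood at −0.04 ± 0.10, −0.17 ± 0.12 and 0.17 ± 0.27 with Ento. SLAMF1 fell with Ento (−2.39 ± 0.45) and rose with AZD (1.14 ± 0.30). The interferon-stimulated genes EPSTI1 (−1.31 ± 0.17), IFIT2 (−1.36 ± 0.20) and PARP9 (−1.43 ± 0.18) fell with AZD.

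**Figure D5:**
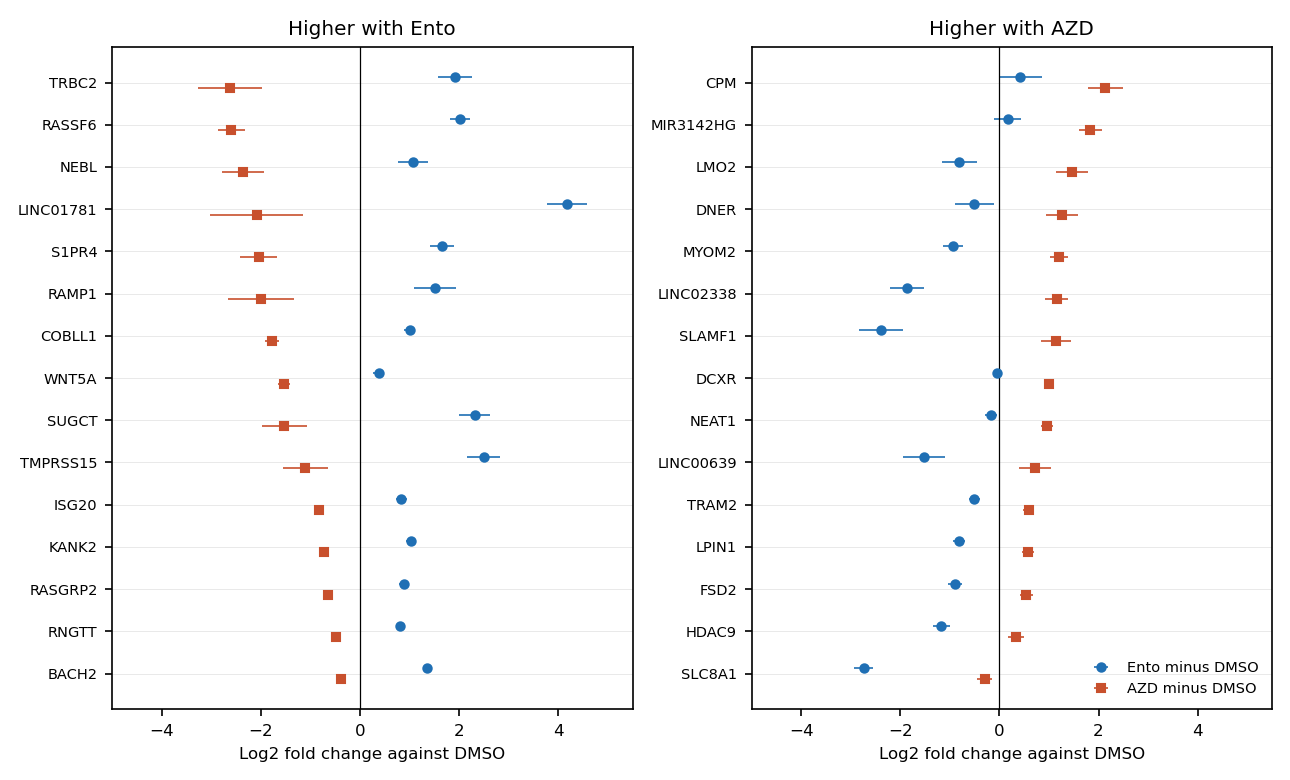
Log2 fold change against DMSO (x axis, with bars for the SE) of 15 named genes higher with Ento (left) and 15 higher with AZD (right), with Ento in blue circles and AZD in red squares, leaving out PLEKHG7, which had no count with AZD. SLC8A1 lies away from DMSO mainly with Ento and WNT5A mainly with AZD, and RASSF6 and SLAMF1 moved in opposite directions.

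The libraries exposed to both agents were set beside the single agents in the same way. The genes were chosen for the distance between Ento and AZD, which by itself tends to place any further group between them, so these values are descriptive too. For the DEGs higher with Ento, Ento+AZD stood at a median of −0.77 against Ento and 0.81 against AZD. For the DEGs higher with AZD it stood at 0.86 against Ento and −0.47 against AZD. Single genes varied. BACH2 averaged 287 ± 64.6 CPM (SD, n = 3) with both agents, near the 292 ± 57.2 CPM of Ento and above the 89.8 ± 32.0 CPM of AZD, and SLC30A4 averaged 17.1 ± 5.18 CPM against 17.3 ± 2.36 and 3.68 ± 1.24 CPM. HEXIM1 (38.0 ± 2.77 CPM) and NEAT1 (421 ± 73.2 CPM) stood near the AZD level. SLAMF1 (0.433 ± 0.219 CPM) and SLC8A1 (1.65 ± 0.316 CPM) were near the Ento level.

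Of 19 genes that the study itself named for these exposures, 7 were higher with Ento and 2 with AZD, and those reported here follow. The study chose nearly all of them on these libraries, so they are no independent evidence of a direction. RASSF6, COBLL1, BACH2 and the zinc transporter gene SLC30A4 (2.25 ± 0.17, adjusted p = 2.87e-06) held in each fit without 1 library. E2F8, a repressor of the E2F family, differed by 0.88 ± 0.25 and was kept in 2 of the 6 fits without 1 library. COLCA2 differed by 2.09 ± 0.48 and by 3.04 without AZD replicate 2. It was lost without Ento replicate 2, which held the highest level (0.294, 2.15 and 0.295 CPM with Ento and 0.0421, 0.534 and 0.0484 CPM with AZD). DHRS2 (−2.40 ± 0.71) and SPARCL1 (−1.48 ± 0.38) were higher with AZD, and each held in 2 of the 6 fits without 1 library. Over all 6 the value of DHRS2 ranged from −3.09 to −1.80. E2F8, DHRS2 and SPARCL1 were not called by DESeq2. CHAF1B (0.53 ± 0.19), RTKN2 (0.86 ± 0.31), MYB (0.33 ± 0.26) and KLF5 (−0.05 ± 0.20) did not pass.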

How the data were processed

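Poly(A)-enriched libraries (NEBNext kit, single reads) were made from SU-DHL-4 cells in 4 groups of 3, which the study calls biological replicates. The authors trimmed reads (CutAdapt, called by TrimGalore), mapped them on GRCh38.p13 and assigned them to genes in Rsubread, and the raw counts per gene symbol that the authors deposited were used here. Strand and multi-mapping settings are not given in the sources used here. The deposited table of TMM-normalised log2 values was not used, and microarray data were not analysed here. No per-sample column was left unmapped (0).

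In R 4.3.3, edgeR 4.0.16 (with limma 3.58.1) filtered genes by group (filterByExpr, minimum count 10, minimum total 15), scaled libraries by TMM and fitted treatment group and replicate number to all 12 libraries, after the study's model. Ento was contrasted with AZD by the quasi-likelihood F-test, with Benjamini-Hochberg adjustment over 16835 genes. The SE is the log2 fold change divided by the root of F. A DEG passed 0.05 after adjustment with a log2 fold change beyond 1 in either direction. Levels are TMM-normalised CPM, and the floor is 3 counts per library. Total counts were 19193603 to 23925992 per Ento or AZD library, and 1 count then equals 0.042 to 0.053 CPM. The scripts were tested on simulated data.

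Same-numbered Ento and AZD libraries deviated together from their group means (r = 0.359, 0.703 and 0.498, different numbers −0.627 to 0.325), so replicate numbers were treated as pairs. Replicates differed beyond counting noise (chi-square per degree of freedom 10.4 to 52.0).

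Named genes were DEGs of 1 sign in all 3 pairs with at least 1 CPM in the higher group, namely the 10 largest changes and the 10 smallest p in each direction without LOC symbols, plus members of 29 lists (561 genes). Members and lists were chosen with earlier results of these data known. Gene coordinates are from GENCODE v44 and promoters from RefSeq, both on GRCh38. Alternatives were DESeq2 1.42.0, RLE scaling, other filters, a test against a fold of 1.2, fewer libraries and no replicate term. Some members of these lists and some genes that met the rule are not reported here, while the counts cover all.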

Additional observations from a re-analysis of the deposited data

How the results depend on the processing

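No call reversed under any alternative, and no DEG changed its sign. Without the replicate block, that is without the pairing by replicate number, DEGs numbered 248 (214 higher with Ento, 34 with AZD), genes at the adjusted p alone 371 and 168, and list members 23 and 3. Of the 541 DEGs 247 were shared with that fit. With the 6 Ento and AZD libraries and the block, DEGs numbered 541, genes at the adjusted p alone higher with AZD 1737, and list members 165 and 58. With these 6 libraries and no block, DEGs numbered 80 (70 and 10), genes at the adjusted p alone 95 and 24, and list members 12 and 0 (edgeR, 2459 genes at an unadjusted p under 0.05). Without the filter on low counts list members numbered 160 and 54. The test against a fold of 1.2, which needs no fold threshold afterwards, called 888 genes, 681 higher with Ento and 207 with AZD, and 49 and 9 list members, so that 76.7% against 87.2% of calls were higher with Ento. DEGs numbered 539 with RLE size factors, 454 with DESeq2, 688 without the filter and 433 with at least 1 CPM. Leaving out 1 library gave 394 to 559 DEGs, 341 to 484 higher with Ento and 45 to 95 higher with AZD, the lowest of the latter without Ento replicate 3. At the adjusted p alone it gave 775 to 1217 genes higher with Ento, the lowest without AZD replicate 3, and 363 to 703 higher with AZD, the lowest without Ento replicate 3, as for the list members (55 to 77 and 11 to 22). The median Ento against DMSO moved between 0.56 and 0.70 for DEGs higher with Ento and between −0.90 and −0.69 for DEGs higher with AZD, and the median of Ento+AZD against AZD between 0.74 and 0.87 for the former. Fits on fewer libraries have fewer degrees of freedom by construction. The fit on the 6 libraries with the block still gave more genes at the adjusted p alone (2170 and 1737) than the main fit (1514 and 964). The causes of these shifts were not tested. Differences of genes below about 1 CPM rest on few counts.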

Other observations

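Long non-coding RNAs made up 88 of the 439 DEGs higher with Ento that have a biotype in the annotation (20%) and 10 of 67 DEGs higher with AZD (14.9%), against 1432 of 16144 tested genes (8.90%). Of the DEGs higher with Ento 32.6% averaged under 1 CPM over the 6 libraries, of those higher with AZD 31.9%, and of all tested genes 16%. Both shares were higher among DEGs than among all tested genes, and the part of the low level in the share of long non-coding RNAs was not tested.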
